A study of Homo sapiens with 8 samples.

Results

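The tumor necrosis factor (TNF) ligand and receptor superfamilies were followed through PRMT9 knockdown (KD) in human acute myeloid leukemia (AML) cells. Members were the genes whose symbol was TNFSF or TNFRSF followed by a number and at most 1 letter, together with TNF, LTA, LTB, LTBR, FAS, FASLG, CD27, CD70 and CD40LG. This gave 41 genes, 17 ligands and 24 receptors, out of 57992 genes in the Molm13 table, and all 41 were also in the THP1 table. CD40, NGFR, RELT, EDA, EDAR and EDA2R belong to the same families under symbols that the rule does not match, and they are given apart.

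The RNA came from Molm13 and THP1, established lines derived from AML with monocytic features and grown without other immune cells. Each line carried either shCtrl or shPRMT9, doxycycline (Dox) was given to all groups, and the genotype was labeled WT throughout. There were 2 libraries in each of 4 groups, 8 in all. PRMT9 is an arginine methyltransferase, and the comparison asked what its loss does to transcripts of cancer cells. The numbers 1 and 2 in the library names may be cultures or different hairpins, since the study numbers its PRMT9 hairpins in the same way. P values therefore measure only the spread between these libraries. The 2 lines came in separate tables, so line and handling cannot be told apart.

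Library totals ran from 18720950 to 27356870 counts. PRMT9 fell in the libraries labeled shPRMT9 of both lines, from 332 and 289 counts to 41 and 56 in Molm13, and from 317 and 352 to 60 and 68 in THP1 (log2 fold change −2.68 and −2.29). The names of the THP1 libraries carry the letters OCI, with which the names of other AML lines begin. In these libraries the leukemia transcription factor MEIS1 had 4 to 9 counts, whereas Molm13 had 1452 to 1811, and 6 HOXB genes summed to between 3.49 and 3.92 RPKM (reads per kilobase of exon, scaled to library size) against at most 0.0684 in Molm13. The identity of the line was not tested, and THP1 below means the libraries labeled so.

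TNF superfamily ligands are trimeric cytokines, made mostly as membrane proteins that can be shed. Their receptors carry cysteine-rich repeats outside the cell. Some receptors with a death domain recruit FADD and caspase-8. Receptors with or without a death domain can engage TRAF adaptors, which lead to NF-κB and JNK signaling. Decoy receptors bind ligand without passing on a death signal. In blood cells the family governs inflammation, lymphocyte costimulation, B cell survival and apoptosis, and monocytic cells are a known source of TNF, BAFF and TRAIL.

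The promoter windows of the genes that rose in both lines are shown first, followed by those of TNFSF9 and TNF, which rose in 1 line each. RefSeq windows (GRCh38.p14) covered 250 bases before and 50 bases after a transcript start, were found for 28 of the 41 genes, and are printed 5′ to 3′ on the gene's strand. In the windows printed below, except that of TNF, the RefSeq start lay inside the limits that the count table gives the gene. Capitals mark matches on either strand to GAAANNGAA, relaxed letters of the interferon-stimulated response element (ISRE).
TNFSF13B, chr13:108269379-108269678, plus strand: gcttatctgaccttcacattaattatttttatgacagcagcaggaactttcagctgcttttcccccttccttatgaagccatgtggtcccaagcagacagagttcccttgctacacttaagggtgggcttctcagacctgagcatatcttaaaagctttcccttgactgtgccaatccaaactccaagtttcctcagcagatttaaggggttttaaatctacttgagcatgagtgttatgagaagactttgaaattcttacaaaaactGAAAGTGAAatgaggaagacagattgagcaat
TNFSF10, chr3:172523381-172523680, minus strand: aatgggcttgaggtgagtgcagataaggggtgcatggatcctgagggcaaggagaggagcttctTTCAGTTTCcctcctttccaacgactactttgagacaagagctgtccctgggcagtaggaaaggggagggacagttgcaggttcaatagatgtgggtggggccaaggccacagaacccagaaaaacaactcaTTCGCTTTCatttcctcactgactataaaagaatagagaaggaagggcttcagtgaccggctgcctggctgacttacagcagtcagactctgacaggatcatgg
TNFSF14, chr19:6670109-6670408, minus strand: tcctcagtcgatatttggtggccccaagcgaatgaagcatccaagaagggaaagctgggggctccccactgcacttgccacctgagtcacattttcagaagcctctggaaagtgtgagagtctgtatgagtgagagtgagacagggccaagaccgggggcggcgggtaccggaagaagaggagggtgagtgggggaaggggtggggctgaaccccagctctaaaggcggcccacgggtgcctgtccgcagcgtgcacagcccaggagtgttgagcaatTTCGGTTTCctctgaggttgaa
TNFRSF14, chr1:2556121-2556420, plus strand: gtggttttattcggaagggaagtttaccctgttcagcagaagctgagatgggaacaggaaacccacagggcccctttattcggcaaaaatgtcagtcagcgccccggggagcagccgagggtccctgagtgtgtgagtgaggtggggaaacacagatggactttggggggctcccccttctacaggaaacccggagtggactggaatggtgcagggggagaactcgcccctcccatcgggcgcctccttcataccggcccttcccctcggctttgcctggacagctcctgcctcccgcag
TNFSF9, chr19:6530776-6531075, plus strand: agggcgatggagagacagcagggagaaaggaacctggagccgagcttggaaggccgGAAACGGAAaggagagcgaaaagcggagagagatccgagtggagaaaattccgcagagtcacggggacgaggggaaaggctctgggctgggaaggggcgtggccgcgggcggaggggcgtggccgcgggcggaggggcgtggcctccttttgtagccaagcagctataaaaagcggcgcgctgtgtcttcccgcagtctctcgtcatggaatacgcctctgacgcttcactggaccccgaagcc
TNF, chr6:31575315-31575614, plus strand: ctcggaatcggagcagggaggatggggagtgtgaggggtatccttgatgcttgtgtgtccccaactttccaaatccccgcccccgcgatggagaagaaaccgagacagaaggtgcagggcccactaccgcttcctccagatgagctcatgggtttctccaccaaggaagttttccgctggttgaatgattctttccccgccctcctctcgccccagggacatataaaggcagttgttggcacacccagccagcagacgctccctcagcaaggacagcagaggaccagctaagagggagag

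In the windows shown, the match began 19 bases into the transcript of TNFSF13B and 29 bases into that of TNFSF14. Both genes had a second RefSeq window with the same match, which lay at −71, before the start, for TNFSF13B and 31 bases into the transcript for TNFSF14. TNFSF10 held 2 matches, starting at −186 and −54 from the transcript start, and TNFSF9 held 1 at −194. TNFRSF1B, not printed, held 1 at −9. The windows of TNFRSF14 and TNF had none. Of the 28 genes with a window, 6 held the letters (the 5 just named and FASLG), while 9.86% of all 27305 symbols did and 8.11% of all 35116 windows. Of the 6 genes with a window that rose in Molm13, 5 held them, and 3 of the 6 that rose in THP1. GGGNNTTCC, relaxed letters of an NF-κB site, was in 6 of the 28 genes (FAS, LTA, TNFRSF13B, TNFRSF25, TNFRSF8 and TNFSF13) and in 7.95% of all symbols. None of the 6 genes that rose in Molm13, or of the 6 in THP1, had it. A match is a run of letters and not a measured site, and no binding or chromatin data were used.

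In the control libraries, CD70 and receptors of TNF were among the most abundant members of both lines. The TRAIL receptor TNFRSF10B ranked 1 in Molm13 and 6 in THP1, where it had 7.06 RPKM. Levels here are RPKM as mean ± SD of 2 libraries. In Molm13, 19 members had a mean above 1 RPKM and 9 were above 10. The TRAIL death receptor TNFRSF10B (37.4 ± 0.792) and the CD27 ligand CD70 (37.3 ± 0.155) stood highest and did not differ beyond their spread. TNFRSF1A, the death domain receptor of TNF, followed at 24.3 ± 0.906, then TNFSF13B at 20.7 ± 0.328 and TNF itself at 19.8 ± 0.78. The last 2 were separated by a small gap, with libraries at 20.5 and 20.9 against 19.3 and 20.4. In THP1, 15 members were above 1 RPKM and 4 above 10, in the order CD70 (27.3 ± 0.352), TNFRSF1A (19.1 ± 0.702), TNFRSF21 (14.5 ± 0.243) and TNFRSF1B (12.5 ± 0.1), with no overlap between neighbors. The 2 lines shared 13 members above 1 RPKM.

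**Figure D1:**
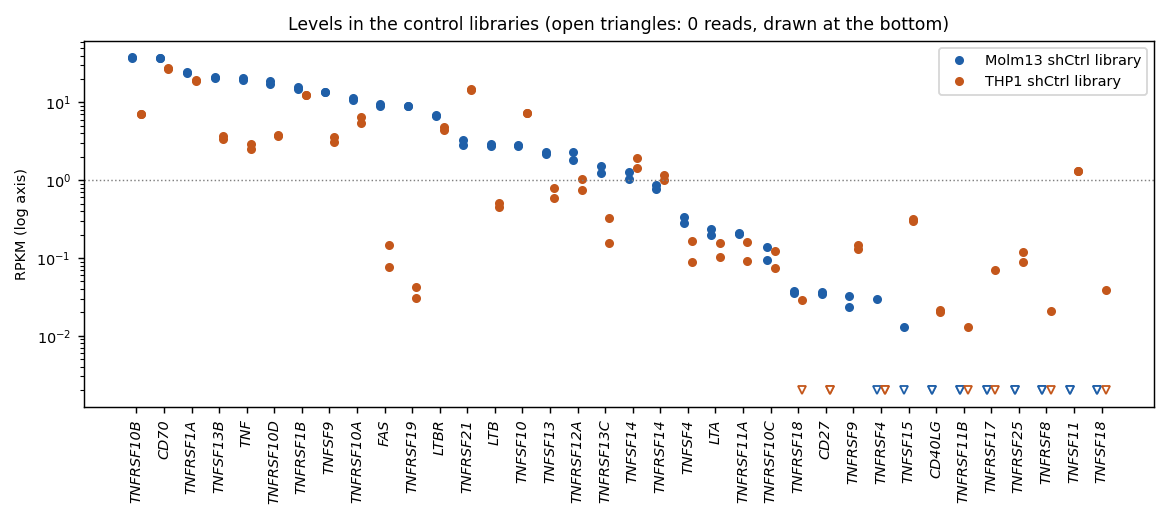
RPKM (log axis) of the 36 members with a read in at least 1 control library, with 2 shCtrl libraries per line as points, ordered by the Molm13 mean. Open triangles mark libraries with 0 reads, drawn at the bottom, and the dotted line is 1 RPKM. FAS and TNFRSF19 show the widest gaps in favor of Molm13, and TNFSF11 was read only in THP1.

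Some members separated the lines sharply before any KD. FAS, the Fas ligand receptor, had 694 and 684 counts in the Molm13 controls and 14 and 8 in THP1, or 9.23 against 0.111 RPKM. TNFRSF19, also called TROY, had 946 and 893 counts against 4 and 6. TNFSF11, which encodes RANKL, had 0 counts in all 4 Molm13 libraries and 91 and 100 in the THP1 controls. TNFRSF21, known as DR6, was instead higher in THP1, at 3.09 against 14.5 RPKM. Ligand levels were also unlike, since TNF was at 19.8 RPKM in Molm13 and 2.71 in THP1, and TNFSF13B at 20.7 and 3.55.

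After PRMT9 KD, 13 of the 41 members changed in at least 1 line, led by TNFSF13B, TNFSF9, TNF, TNFRSF1B and TNFSF10. A gene was called when its edgeR false discovery rate (FDR, the Benjamini-Hochberg adjusted P over all genes tested) was below 0.05, its fold change was above 1.5 or below 1/1.5, and its RPKM was above 1 in at least 1 library of the line. In Molm13, 23 of the 41 members had enough counts to test, 9 rose and 2 fell. Of all 16446 genes tested, 11.4% rose and 11.3% fell. In THP1, 25 members were tested, 6 rose and 0 fell, against 3.82% and 2.39% of 16294 genes. The other members were too low to test, so these counts describe the detected members only. No THP1 member was lower at an unadjusted P below 0.05 in edgeR, and DESeq2 called 0 lower. The median log2 fold change of the members tested was 0.74 in Molm13 and 0.47 in THP1, where that of all genes tested was 0.000472 and −0.000631.

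Among ligands, 5 of 9 tested rose in Molm13 and 4 of 11 in THP1, and among receptors 4 of 14 and 2 of 14. In Molm13 the RPKM of the 17 ligands summed to 100 and 102 in the controls and to 216 and 220 after KD. The 24 receptors summed to 139 in both controls and to 195 and 196 after KD. In THP1 the ligand sum went from 48.5 and 49.5 to 73.9 and 73.7, and the receptor sum from 71.2 and 69.6 to 82.1 and 86.6. The 2 groups did not overlap in any of the 4 sums. In bulk RNA, more cells with a transcript and more transcript per cell cannot be told apart.

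TNFSF13B, TNFSF10, TNFSF14 and TNFRSF14 rose in both lines, and no member moved in opposite directions by the call. Another 5 rose in Molm13 and were not called in THP1 (TNFSF9, CD70, TNFRSF1B, TNFRSF10D and TNFRSF13C), and TNF and LTBR rose in THP1 and were not called in Molm13. The 2 that fell in Molm13, TNFRSF21 and TNFRSF12A, were not called in THP1.

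**Figure D2:**
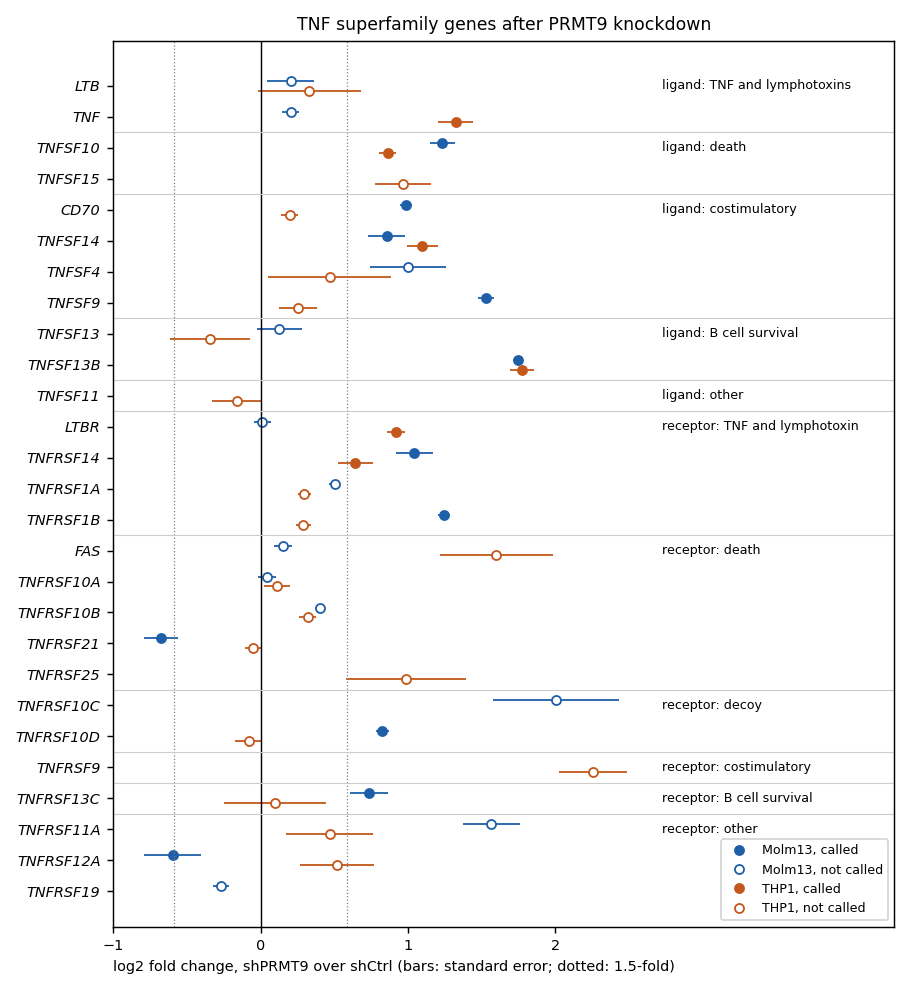
Log2 fold change of shPRMT9 over shCtrl (x axis; bars are standard errors of the fit, 2 libraries per group) for the members tested in at least 1 line, ordered by role. Filled points were called and open points were not, and dotted lines mark 1.5-fold. TNFSF13B lies near 1.75 in both lines, while TNF and LTBR are filled only for THP1 and TNFSF9, CD70 and TNFRSF1B only for Molm13.

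TNFSF13B had the largest log2 fold change of the genes that rose in both lines. It encodes BAFF, the cytokine that keeps B cells alive. In Molm13 it went from 20.5 and 20.9 RPKM to 67.2 and 70.3, on counts of 1282 and 1240 against 3878 and 4593. In THP1 it went from 3.4 and 3.69 RPKM to 12.8 and 11.2, on 267 and 311 counts against 995 and 853. All 4 KD libraries lay far above their controls. The rise was 3.36-fold in Molm13 (log2 fold change 1.75 ± 0.04 standard error (SE), edgeR FDR 1.48e-35) and 3.41-fold in THP1 (1.77 ± 0.08, edgeR FDR 2.6e-16). TNFRSF13C, the BAFF receptor, had 1.25 and 1.55 RPKM in the Molm13 controls and 2.34 and 2.27 after KD. These groups did not overlap, and the rise was 1.67-fold (0.74 ± 0.13, edgeR FDR 2.52e-06). In THP1 it stayed low, with 16 and 35 counts in the controls and 27 and 24 after KD. The remaining BAFF and APRIL receptors were nearly silent, with 0 counts in all 8 libraries for TNFRSF13B (TACI) and at most 2 for TNFRSF17 (BCMA). A list of 8 B cell markers summed to between 5.65 and 5.66 RPKM in the Molm13 controls and to 6.9 and 7.13 after KD, and in THP1 to 1.01 and 1.09 and then 2.35 and 1.81. PAX5, a B lineage transcription factor, had 866 and 829 then 741 and 821 counts in Molm13 (−0.12 ± 0.06, edgeR FDR 0.0605), and rose in THP1 from 64 and 86 to 298 and 276 (2.03 ± 0.13, edgeR FDR 7.37e-13). FCRLA, a B cell protein, rose in Molm13 from 61 and 56 counts to 144 and 161 (1.38 ± 0.16, edgeR FDR 1.4e-10) and had at most 4 in THP1. These were the only genes of the list called, 1 in each line. MS4A1, CD22, BLK and CD79A had at most 7 counts in any library, while CD79B had at most 7 in Molm13 and 12 to 33 in THP1. The part of this list in the BAFF and BAFF receptor values was not tested. TNFSF13, which encodes APRIL, was not called in either line (0.13 ± 0.15 and −0.34 ± 0.27).

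The TRAIL axis moved on the ligand and on 1 decoy receptor. TNFSF10 encodes TRAIL, which triggers apoptosis through TNFRSF10A and TNFRSF10B. Its level was 2.73 and 2.84 RPKM in the Molm13 controls and 6.43 and 6.54 after KD. In THP1 it was 7.32 and 7.36, then 13 and 13.4. The KD libraries were higher in both lines, by 2.35-fold in Molm13 (1.23 ± 0.09, edgeR FDR 9.5e-17) and 1.82-fold in THP1 (0.86 ± 0.06, edgeR FDR 2.52e-12). TNFRSF10D, a decoy with a truncated death domain, had 18.6 and 17.3 RPKM in the Molm13 controls and 31.6 and 31.4 after KD. It was clearly higher in both KD libraries of Molm13 (1.77-fold, 0.83 ± 0.04, edgeR FDR 2.88e-21). In THP1 its groups were close, at 3.71 and 3.76 RPKM and then 3.69 and 3.31 (−0.08 ± 0.09, edgeR FDR 0.534).

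The signaling TRAIL receptors moved less. TNFRSF10B had 36.9 and 38 RPKM in the Molm13 controls and 49.5 and 48.4 after KD, and 7.12 and 7 then 8.44 and 9.04 in THP1. Its groups did not overlap in either line, but the differences (0.40 ± 0.03, edgeR FDR 3.13e-16, and 0.32 ± 0.06, edgeR FDR 5.54e-05) were below 1.5-fold. TNFRSF10A was at 10.8 and 11.4 RPKM and then 11.3 and 11.3 in Molm13, where the groups overlapped (0.04 ± 0.06). In THP1 it also overlapped, at 6.54 and 5.4 and then 5.98 and 6.77 (0.11 ± 0.09). The second decoy, TNFRSF10C, lacks a cytoplasmic domain and was rare. Its counts were 5 and 7 in the Molm13 controls and 20 and 29 after KD (2.01 ± 0.43, edgeR FDR 6.31e-05), with no library above 1 RPKM. In THP1 it had 5 and 9 counts, then 1 and 3, and was not tested.

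In THP1, the ligand LIGHT and both of its receptors rose. TNFSF14 encodes LIGHT, a costimulator that binds TNFRSF14 (HVEM) and LTBR, the lymphotoxin β receptor. TNFSF14 had 1.29 and 1.03 RPKM in the Molm13 controls and 2.12 and 2.05 after KD. In THP1 it had 1.44 and 1.91, then 3.66 and 3.49. The rises were 1.81-fold (0.86 ± 0.13, edgeR FDR 9.45e-08) and 2.14-fold (1.10 ± 0.10, edgeR FDR 1.38e-09), with no overlap. TNFRSF14 had 0.77 and 0.864 RPKM in the Molm13 controls and 1.53 and 1.79 after KD (2.06-fold, 1.04 ± 0.13, edgeR FDR 1.09e-09). In THP1 it had 1.18 and 1 RPKM and then 1.53 and 1.85 (1.56-fold, 0.64 ± 0.12, edgeR FDR 8.31e-05). This last rise was close to the 1.5-fold limit and fell under it without control library 2 (0.515) or without KD library 2 (0.499).

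LTBR, by contrast, was flat in Molm13, at 6.68 and 6.87 RPKM and then 6.95 and 6.59 (0.01 ± 0.06). THP1 controls had 4.87 and 4.42 RPKM, and the KD libraries 8.51 and 8.88. Both THP1 KD libraries stood well above the controls (1.89-fold, 0.92 ± 0.06, edgeR FDR 6.81e-13). The lymphotoxins themselves were low. LTB had 82 to 100 counts in the Molm13 libraries and 19 to 26 in THP1, and was not called (0.20 ± 0.16 and 0.33 ± 0.35). LTA had 4 to 14 counts in any library and was not tested in either line.

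TNF and its receptors split by line. TNF, the founding inflammatory cytokine, had 661 and 661 counts in the Molm13 controls and 713 and 809 after KD, or 19.3 and 20.4 then 22.6 and 22.6 RPKM. The KD libraries were higher, but by only 1.15-fold (0.20 ± 0.06, edgeR FDR 0.00266). In THP1 TNF went from 107 and 135 counts to 298 and 269, or from 2.49 and 2.92 RPKM to 7.02 and 6.44. This was a 2.5-fold rise (1.32 ± 0.12, edgeR FDR 6.2e-10), and the THP1 level after KD was below that of the Molm13 controls. TNFRSF1B, the TRAF-binding TNF receptor, had 15.1 and 15.8 RPKM in the Molm13 controls and 35.9 and 36.3 after KD. It rose 2.37-fold (1.24 ± 0.04, edgeR FDR 9.4e-29). In THP1 it had 12.5 and 12.4, then 14.9 and 15.4, a difference under the fold limit (0.29 ± 0.05, edgeR FDR 4.51e-05). TNFRSF1A, which carries the death domain, was higher without reaching 1.5-fold in both lines. It had 24.9 and 23.6 then 33.4 and 34.8 RPKM in Molm13 (0.50 ± 0.04, edgeR FDR 8.7e-16) and 18.6 and 19.6 then 22.7 and 23.9 in THP1 (0.30 ± 0.04, edgeR FDR 4.49e-06).

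**Figure D3:**
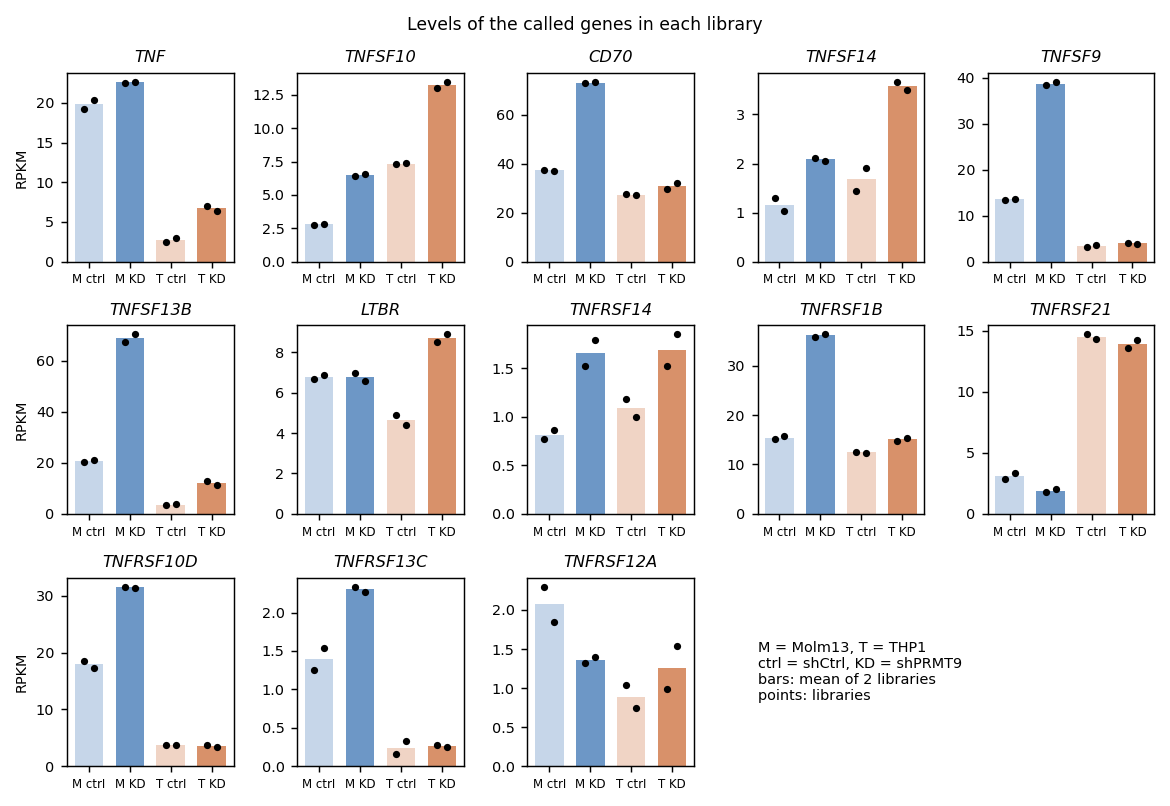
RPKM in each library (points) and group means (bars, 2 libraries) of the 13 members called in at least 1 line, with shCtrl and shPRMT9 of Molm13 (M) and THP1 (T). Each panel has its own axis from 0. TNFSF13B and TNFSF10 step up in both lines, TNF and LTBR in THP1, and CD70, TNFSF9, TNFRSF1B and TNFRSF10D in Molm13.

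Among the costimulatory ligands, 3 of the 4 tested rose in Molm13 and 1 of 4 in THP1. The shares of all genes tested that rose were 11.4% and 3.82%. TNFSF9, the ligand of the costimulatory receptor CD137, went from 13.5 and 13.6 RPKM to 38.4 and 39 in Molm13 (2.89-fold, 1.53 ± 0.06, edgeR FDR 2.06e-26). THP1 had 3.14 and 3.55, then 4.15 and 3.76, without a call (0.25 ± 0.13, edgeR FDR 0.135). CD70, the ligand of CD27, went from 37.4 and 37.1 RPKM to 73 and 73.3 in Molm13 (1.98-fold, 0.99 ± 0.04, edgeR FDR 2.18e-24). This was the highest level of any member after KD. In THP1 CD70 had 27.6 and 27.1 RPKM, then 29.7 and 32.3 (0.20 ± 0.06, edgeR FDR 0.00669). TNFSF4, which encodes the OX40 ligand, had 23 and 26 counts in the Molm13 controls and 49 and 49 after KD (1.00 ± 0.26, edgeR FDR 0.000746), with no library above 1 RPKM. TNFSF14, the remaining ligand of this group with reads, is described above. CD40LG, TNFSF8 and TNFSF18 had at most 2 counts in any library.

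The costimulatory receptors, best known from T cells, were near silent. TNFRSF9 (CD137) had reads in THP1, with 21 and 26 counts in the controls and 117 and 94 after KD (4.77-fold, 2.26 ± 0.23, edgeR FDR 4.96e-09). It had no library above 1 RPKM and so was not called. In Molm13 it had 3 and 4 counts, then 11 and 9. CD27 had at most 2 counts in any library, TNFRSF4 and TNFRSF18 at most 7, and TNFRSF8 at most 9. A list of 8 T and NK cell markers summed to between 15.7 and 16.9 RPKM in the Molm13 controls and 26.3 and 28.6 after KD, and to 5.53 and 6.3 then 10.2 and 10.4 in THP1, with 2 or 3 of its genes at 0 in each library. NKG7 made up nearly all of that sum in Molm13, with 16.2 RPKM in the controls and 27.2 after KD. The part of these markers in the values above was not tested.

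No death receptor was called up. Of the 5 so grouped (FAS, TNFRSF10A, TNFRSF10B, TNFRSF21 and TNFRSF25), edgeR called 0 up in either line, and DESeq2 likewise. At an unadjusted P below 0.05, 2 were higher in Molm13 and 3 in THP1. FAS had 694 and 684 counts in the Molm13 controls and 719 and 812 after KD (0.15 ± 0.06, edgeR FDR 0.0211), a difference under the fold limit. In THP1 it was rare, with 14 and 8 counts against 28 and 35 (1.60 ± 0.38, edgeR FDR 0.00132) and no library above 1 RPKM. TNFRSF25, a T cell death receptor, had 9 and 13 then 21 and 20 counts in THP1 (0.99 ± 0.41, edgeR FDR 0.058). FASLG had 0 counts in all 8 libraries.

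TNFRSF21 and TNFRSF12A fell in Molm13. TNFRSF21 went from 210 and 231 counts to 122 and 154, or from 2.85 and 3.32 RPKM to 1.8 and 2.01 (0.626 of control, −0.68 ± 0.12, edgeR FDR 1.81e-06). Without control library 2 the change was −0.573, inside the fold limit. In THP1, where it was the third most abundant member, it had 14.7 and 14.3 RPKM and then 13.6 and 14.2 (−0.05 ± 0.05, edgeR FDR 0.493). TNFRSF12A, the TWEAK receptor Fn14, had 87 and 66 counts in the Molm13 controls and 46 and 55 after KD (−0.60 ± 0.20, edgeR FDR 0.00675). This call was lost with DESeq2 (adjusted P 0.117), without control library 1 (−0.423, edgeR FDR 0.12) and without KD library 1 (−0.552, edgeR FDR 0.0435). In THP1 TNFRSF12A had 49 and 38 counts, then 46 and 71, with overlap (0.52 ± 0.25, edgeR FDR 0.107). It was called up there without control library 1 (0.77) or without KD library 1 (0.809).

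Of the remaining members, TNFRSF11A encodes RANK and had 39 and 35 counts in the Molm13 controls and 116 and 103 after KD (1.56 ± 0.19, edgeR FDR 1.64e-09), below 1 RPKM in every library. The THP1 counts were 37 and 23, then 45 and 33 (0.47 ± 0.30). TNFRSF19 had 946 and 893 counts in Molm13 and 717 and 808 after KD (−0.27 ± 0.05, edgeR FDR 3.4e-05), lower but by less than the fold limit. TNFSF11 had 91 and 100 counts and then 80 and 80 in THP1 (−0.16 ± 0.17). TNFSF15, the ligand of TNFRSF25, had 60 and 69 counts in the THP1 controls and 141 and 95 after KD (0.96 ± 0.19, edgeR FDR 0.000146), below 1 RPKM. In Molm13 it had at most 2. The soluble decoy TNFRSF11B (osteoprotegerin) had at most 7 counts in any library.

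In all, 14 members were tested in neither line, with at most 14 counts in a library, and 5 of them (FASLG, TNFRSF13B, TNFRSF6B, TNFSF12 and TNFSF8) had 0 in all 8. With 0 counts in a library, up to 3 remain possible by counting error alone. For TNFRSF6B a 0 is not informative about transcription, since in GENCODE 29 all of its 1141 exonic bases lie within the readthrough gene RTEL1-TNFRSF6B on the same strand. That gene had 56 and 43 counts in the Molm13 controls and 16 and 19 after KD, and 68 to 89 in the THP1 libraries. For TNFSF12, 29.4% of the exonic bases lie within TNFSF12-TNFSF13, which also had 0 counts in all libraries. Exons of TNFSF13 overlapped that readthrough gene over 55.5% of their length, so its counts may be incomplete. TNFRSF10C shared 39.3% of its exonic bases with 2 genes on the same strand, AC107959.4 and AC107959.5, and its limits in the count table differ from GENCODE 29, so its counts and the fold changes from them are uncertain. Opposite-strand exons covered 37% of CD27, 16.6% of TNFRSF10A and 13.4% of TNFRSF14. Whether counting used the strand is not given in the sources used here.

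Several members are neighbors, with coordinates on hg38. TNFSF9, CD70 and TNFSF14 lie within 139.59 kb on chromosome 19 (6530999 to 6670588). In Molm13 all 3 rose, and no other gene in the span was tested. In THP1, TNFSF14 rose and the other 2 were not called. LTA, TNF and LTB lie within 10.469 kb on chromosome 6 (31572054 to 31582522), where TNF alone rose, in THP1. TNFRSF1A, LTBR and CD27 lie within 122.962 kb on chromosome 12 (6328757 to 6451718), and there LTBR alone rose, in THP1. The 4 TRAIL receptors lie within 204.994 kb on chromosome 8 (23020133 to 23225126), where TNFRSF10D alone rose, in Molm13.

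The effect of KD was then compared between the lines in 1 fit of all 8 libraries, in which 28 members were tested. At an edgeR FDR below 0.05, the log2 fold change was higher in THP1 for 5 members and higher in Molm13 for 8. Of all 19288 genes tested, 22.8% were higher in THP1 and 19.4% higher in Molm13, so the members' count is near that background. The 5 were FAS (1.46 ± 0.34, edgeR FDR 0.000169), TNF (1.13 ± 0.13, edgeR FDR 5.12e-12), TNFRSF12A (1.13 ± 0.31, edgeR FDR 0.00167), LTBR (0.92 ± 0.08, edgeR FDR 4.75e-17) and TNFRSF21 (0.64 ± 0.13, edgeR FDR 1.21e-05). The 8 were TNFRSF10C (−3.64 ± 0.92), TNFSF9 (−1.26 ± 0.14), TNFRSF11A (−1.08 ± 0.35), TNFRSF1B (−0.94 ± 0.07), TNFRSF10D (−0.90 ± 0.10), CD70 (−0.78 ± 0.07), TNFSF10 (−0.36 ± 0.11) and TNFRSF1A (−0.20 ± 0.06). Counts behind the extremes were low, at most 35 for FAS in THP1 and at most 29 for TNFRSF10C in either line.

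The TNFRSF12A difference did not pass with DESeq2 (adjusted P 0.0517) or without THP1 KD library 2 (edgeR FDR 0.0862), and the TNFRSF11A difference did not pass with DESeq2 (0.0641) or without THP1 control library 1 (edgeR FDR 0.215). TNFSF13B had the closest effects of the genes that rose in both lines (0.04 ± 0.09, edgeR FDR 0.814). TNFSF14 (0.25 ± 0.17, edgeR FDR 0.244) and TNFRSF14 (−0.39 ± 0.18, edgeR FDR 0.0716) did not pass, which does not show equal effects. The TNFRSF14 difference passed with library size alone (−0.43, edgeR FDR 0.043), without Molm13 KD library 1 (−0.53, edgeR FDR 0.0206), without THP1 control library 2 (−0.54, edgeR FDR 0.0127) and without THP1 KD library 2 (−0.57, edgeR FDR 0.00767). The TNFSF14 difference passed without THP1 control library 2 (0.44, edgeR FDR 0.0431). The TNFRSF13C difference (−0.63 ± 0.34, edgeR FDR 0.137) passed without THP1 control library 1 (−1.07, edgeR FDR 0.00901).

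**Figure D4:**
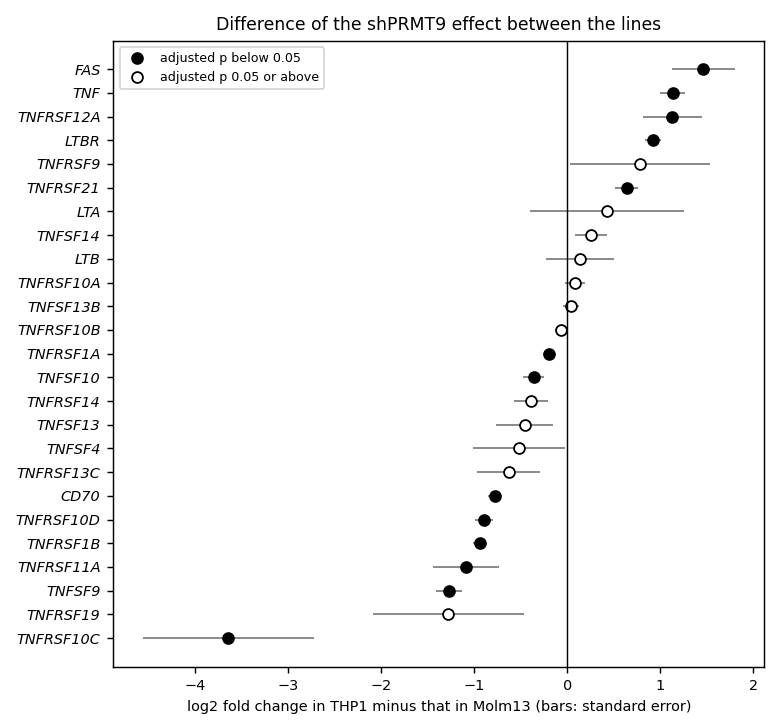
Log2 fold change in THP1 minus that in Molm13 (x axis; bars are standard errors) for 25 members, from 1 fit of 8 libraries. Filled points had an edgeR FDR below 0.05. Positive values such as TNF (1.13) and LTBR (0.92) were higher in THP1, and negative values such as TNFSF9 (−1.26) higher in Molm13. TNFRSF25, TNFSF11 and TNFSF15 are left out because a line with almost no counts gave them a standard error above 1.

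TNFAIP3 was called up in both lines, and no other gene of the 3 lists drawn around the receptors was. BIRC3, MAP3K14 and TRAF1 passed the FDR and fold limits in both lines but had no Molm13 library above 1 RPKM. TRAF1 had no THP1 library above 1 RPKM either, and MAP3K14 was close to the fold limit in Molm13 (0.59 ± 0.17). In a list of 12 TNF-induced proteins and A20 partners, 4 of 10 tested rose in Molm13 and 2 of 11 in THP1, and none was called down. The share of all genes tested that rose was 11.4% in Molm13 and 3.82% in THP1. TNFAIP3 encodes A20, the deubiquitinase that ends TNF signaling. It had 1065 and 964 counts in the Molm13 controls and 2528 and 2949 after KD (1.43 ± 0.04, edgeR FDR 2.93e-30), and 532 and 579 then 2062 and 2113 in THP1 (2.00 ± 0.06, edgeR FDR 2.23e-21). Every KD library was far above its controls. TNIP1, an A20 binding protein, rose in Molm13 (0.85 ± 0.04), as did TNFAIP8L2 (0.80 ± 0.06) and TNFAIP8L1 (0.61 ± 0.07), and TNIP2 rose in THP1 (0.72 ± 0.06). TNFAIP8 was lower under the fold limit in Molm13 (−0.56 ± 0.06, edgeR FDR 1.01e-11) and THP1 (−0.48 ± 0.05, edgeR FDR 1.03e-08). TNFAIP8L1 was lower under that limit in THP1 (−0.31 ± 0.09, edgeR FDR 0.00941). TNFAIP6, a secreted hyaluronan-binding protein, had 0 and 1 counts in the THP1 controls and 33 and 31 after KD, below 1 RPKM.

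In a list of 20 receptor complex and adaptor genes, 0 of 19 tested were called in Molm13 and 3 of 20 rose in THP1. For all genes tested, 11.4% rose and 11.3% fell in Molm13, and 3.82% rose in THP1. In Molm13, 10 were higher and 6 lower at an unadjusted P below 0.05, most by small steps. BIRC3, an inhibitor of apoptosis in the receptor complex, had 46 and 38 counts in the THP1 controls and 258 and 214 after KD (2.58 ± 0.17, edgeR FDR 4.56e-13). In Molm13 it had 5 and 3, then 73 and 94 (4.34 ± 0.34), and stayed below 1 RPKM. MAP3K14, the NF-κB inducing kinase (1.08 ± 0.12), and CYLD, a deubiquitinase (0.91 ± 0.06), also rose in THP1. TRAF1 was higher in Molm13, with 27 and 28 then 79 and 132 counts (1.93 ± 0.22), and again below 1 RPKM. TRAF2, TRAF3 and TRAF6 were not called in either line, with changes under the fold limit. TRAF3 was lower in Molm13 (−0.52 ± 0.08, edgeR FDR 1.83e-07) and higher in THP1 (0.33 ± 0.05, edgeR FDR 1.96e-06). TRAF2 was lower in Molm13 (−0.33 ± 0.08, edgeR FDR 0.000236) and TRAF6 in THP1 (−0.30 ± 0.08, edgeR FDR 0.0023).

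In a list of 12 death receptor output genes, 2 of 11 tested rose in Molm13, and 0 of 11 were called in THP1. For all genes tested, 11.4% rose in Molm13, and 3.82% rose and 2.39% fell in THP1. CASP10, an initiator caspase (1.06 ± 0.07, edgeR FDR 4.5e-17), and RIPK3, a necroptosis kinase (0.83 ± 0.09, edgeR FDR 1.32e-10), rose in Molm13. In THP1 the list ran from −0.19 to 0.54 on the log2 scale. The adaptor FADD was not called in either line (0.05 ± 0.06 and 0.16 ± 0.07). Of the family members outside the symbol rule, CD40 rose in THP1, from 28 and 57 counts to 124 and 128 (1.66 ± 0.21, edgeR FDR 1.97e-07). It had 1 and 1 then 10 and 16 counts in Molm13.

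**Figure D5:**
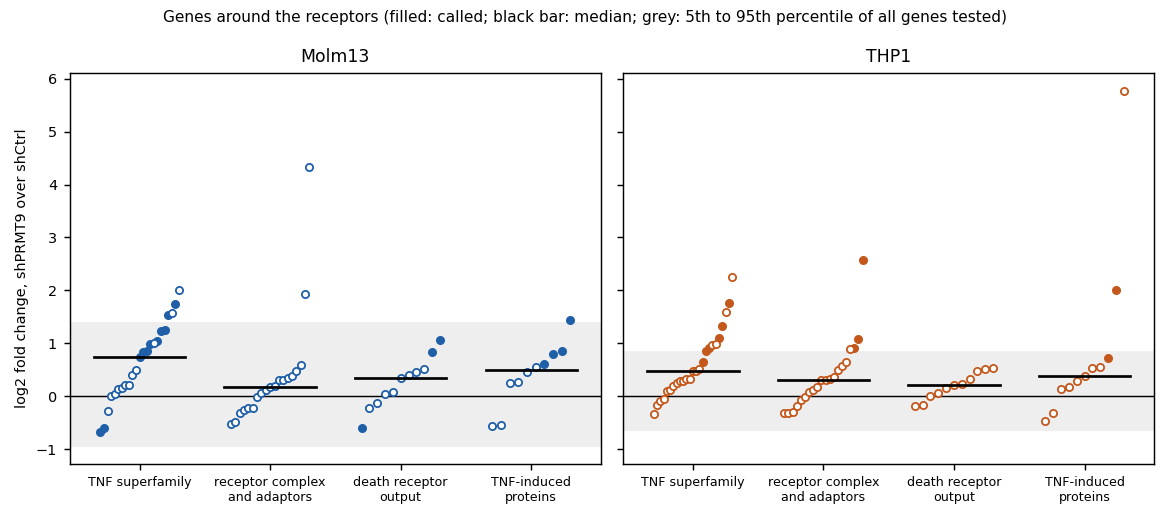
Log2 fold change of shPRMT9 over shCtrl (y axis) for the members tested and 3 gene lists, in each line. Filled points were called, black bars are medians, and the grey band spans the 5th to 95th percentile of all genes tested (−0.94 to 1.38 in Molm13, −0.63 to 0.84 in THP1). The member medians of 0.74 and 0.47 lie above those of the receptor complex list (0.18 and 0.30) and the death receptor output list (0.34 and 0.21).

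Some monocytic markers moved with the groups as well, in both directions. A list of 12 monocytic AML markers summed to 531 and 542 RPKM in the Molm13 controls and to 806 and 818 after KD, and in THP1 to 1269 in both controls and to 2033 and 1954 after KD. LYZ alone made up most of these sums. Its mean RPKM was 361 in the Molm13 controls and 565 after KD, and 1072 then 1737 in THP1. All 12 were read in every library. In Molm13, 4 of 11 tested rose (LYZ, CSF1R, ITGAM and PTPRC), and in THP1 4 of 11 rose (LYZ, CSF1R, CD14 and ITGAM) and 2 fell (MPO and HOXA10). Over all genes tested, 11.4% rose and 11.3% fell in Molm13, and 3.82% and 2.39% in THP1. Lower in Molm13 by less than the fold limit were MPO (−0.56 ± 0.05, edgeR FDR 3.26e-13), HOXA10 (−0.44 ± 0.05, edgeR FDR 1.44e-11) and FCGR1A (−0.44 ± 0.11, edgeR FDR 0.00046). CSF1R, the macrophage growth factor receptor, rose in both (2.06 ± 0.06 and 1.03 ± 0.04), as did ITGAM, the myeloid integrin CD11b (1.95 ± 0.05 and 1.15 ± 0.06). The part of these marker changes in the ligand and receptor values was not tested. Erythroid markers summed to at most 0.376 RPKM in any library, and stromal and epithelial markers to at most 5.17.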

How the data were processed

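PolyA RNA-seq of 8 libraries was used, 2 per group. Per the labels and the submitters' processing notes, libraries were made with a Kapa mRNA HyperPrep kit, sequenced on a HiSeq system, aligned to hg38 with TopHat2 2.0.8 and counted with HTSeq 0.11.2, and the authors deposited the whole-number counts per gene, 1 table per line, without normalization. The annotation release and strand setting are not given in the sources used here. The members and lists were chosen with earlier results of these data known.

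From the counts, edgeR 4.0.16 in R 4.3.3 (TMM, filterByExpr, quasi-likelihood test, Benjamini-Hochberg over all genes) compared shPRMT9 with shCtrl within each line, without a replicate block, and all 8 libraries were fitted for the difference between lines. The limits on fold change and RPKM follow the study's methods, with the upper fold limit read as above 1.5. SE is the absolute log2 fold change over the square root of F. RPKM was computed from TMM-scaled totals and the gene lengths that the Molm13 table lists, which served THP1 too. Named were all members, with full values for those called or different between lines, and, of each list, genes called and the largest changes. Replicates differed by more than sampling noise (chi-square per gene 1.35 to 2.17). Scripts were tested on simulated data. Alternatives were other scaling, DESeq2 1.42.0, no count filter, other call rules, a replicate block, a common fit, and each library left out. Some genes of the lists are not reported here.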

Additional observations from a re-analysis of the deposited data

Results flagged for a closer look

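The effect of PRMT9 KD differed between the lines for 13 of the 28 members tested, by edgeR's test of the difference itself, 5 higher in THP1 and 8 higher in Molm13. Over all genes tested, 22.8% were higher in THP1 and 19.4% higher in Molm13, so the count is near that background. As log2 fold change in THP1 minus that in Molm13, the differences in favor of THP1 were 1.46 for FAS, 1.13 for TNF, 1.13 for TNFRSF12A, 0.92 for LTBR and 0.64 for TNFRSF21. Those in favor of Molm13 were −3.64 for TNFRSF10C, −1.26 for TNFSF9, −1.08 for TNFRSF11A, −0.94 for TNFRSF1B, −0.90 for TNFRSF10D, −0.78 for CD70, −0.36 for TNFSF10 and −0.20 for TNFRSF1A. The differences of TNFRSF12A and TNFRSF11A did not pass with DESeq2 (adjusted P 0.0517 and 0.0641), nor without THP1 KD library 2 (edgeR FDR 0.0862) and THP1 control library 1 (edgeR FDR 0.215), respectively. TNFRSF10C shared 39.3% of its exonic bases with other genes. Line and handling cannot be told apart in these values.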

How the results depend on the processing

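All 9 genes that rose in Molm13 kept the call under other scaling, DESeq2, no count filter, the common fit of both lines and each library left out (9 in each), and so did the 6 in THP1, except that leaving out a library gave 5 to 7, with TNFRSF14 lost or TNFRSF12A gained. An FDR limit alone gave 16 up in Molm13 and 13 up in THP1, and a fold limit of 2 gave 5 and 3, and 0 down in Molm13. Down calls in Molm13 were 1 with DESeq2 and 1 to 2 with a library left out. With the replicate number as a block the counts were 9 up and 2 down in Molm13, 6 up and 0 down in THP1 and 13 differences, so the block changed no call. Of the differences between lines, those of TNFRSF14, TNFSF14 and TNFRSF13C passed under some other settings or with a library left out, and those of TNFRSF12A and TNFRSF11A were lost with DESeq2 or a library left out. The same-numbered libraries did not deviate together (correlations −0.087 and −0.0146), and the numbers were not read as pairs. Small values changed sign. LTBR in Molm13 was −0.00226 with no count filter, and the TNFSF13B difference between lines was −0.0077 with library size alone. With 1 library left out, LTBR in Molm13 ran from −0.016 to 0.064, TNFSF13 in Molm13 from −0.029 to 0.27, TNFRSF13C in THP1 from −0.31 to 0.70 and TNFRSF10A in THP1 from −0.034 to 0.26. The differences between lines then ran from −0.097 to 0.097 for TNFSF13B, −2.44 to 1.90 for TNFSF15, −0.16 to 1.44 for LTA, −0.088 to 0.19 for TNFRSF10A and −0.079 to 0.27 for LTB. The cause was not tested. Depth limits members with few counts, such as FAS in THP1 and TNFRSF10C.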
